A study of Mus musculus with 6 samples.

Results

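The protein genes of the mitochondrial ribosome were described in F4/80high and F4/80low tumor-associated macrophages (TAMs) of mouse melanoma. They were taken by symbol and biotype: each gene listed as protein-coding whose name starts with Mrpl (large subunit) or Mrps (small subunit) and a digit, with 10 or more counts in the libraries together. Of the 23424 genes in the count tables, 76 met this rule, 47 of the large and 29 of the small subunit, and no protein-coding gene with such a name was lost to the count minimum. Bulk RNA-seq was done on live, lineage-negative CD45+ CD11b+ F4/80+ cells, sorted from tumors at day 21 and fixed after the sort. The tumors grew from YUMM1.7 cells, a mouse melanoma line injected intradermally into untreated wild-type female C57Bl/6J mice. These mice were 8 weeks old at tumor induction. The F4/80high and F4/80low subsets had 3 libraries each, from 3 independent experiments in which 10 tumors were pooled. Both subsets share strain, tumor line, age and day, with no treatment, and were separated by the gate on F4/80, the macrophage surface protein encoded by Adgre1.

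The mitochondrial ribosome, or mitoribosome, translates the few messenger RNAs made inside the organelle, all of which encode subunits of the respiratory chain and ATP synthase. Its RNAs come from mitochondrial DNA, while each of its proteins is encoded in the nucleus, made in the cytosol and imported. Many of these proteins descend from bacterial ribosomal proteins and the rest were added in mitochondria. Macrophages are known to change their use of respiration with their activation state.

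The 76 genes lay on 17 chromosomes, with 10 on chromosome 11 and 8 on chromosome 17. Promoter sequence was taken from RefSeq on GRCm38.p6, as windows from 250 bases before to 50 bases after a start site. Of the 76 genes, 67 had 73 such windows. They were searched on both strands for motifs of 3 factors known for nuclear genes of mitochondrial proteins: NRF1 (CGCNTGCGC), GABPA (CCGGAAGT) and YY1 (AAGATGGCG). At least 1 of the 3 was in 46.6% of the mitoribosomal windows, against 19.4% of the 14069 windows of tested genes and 10.6% of all 32851 windows. The NRF1 motif was in 21.9% of them, against 11.7% of windows of tested genes and 6.25% of all windows. The GABPA motif was in 16.4%, against 6.95% and 3.89%, and the YY1 motif in 11%, against 2.54% and 1.4%. Median GC content was 58.3% in the mitoribosomal windows and 60.0% in those of tested genes. The NRF1 motif is nearly its own reverse complement, so matches on the 2 strands can overlap, and such a place was counted once per window. A match describes letters and is not a bound site. Below are stretches before the start sites of 5 genes that recur in the results, limited to bases outside the annotated gene, 5′ to 3′ on the gene's strand, with motif matches in capitals. Mrpl27 and Mrpl50 had the smallest p-values of the comparison, Mrpl12 and Mrpl45 stand for the stalk and the tunnel exit, and Mrps21 has the highest level per length of its subunit.
Mrpl27, chr11:94653641-94653766, plus strand: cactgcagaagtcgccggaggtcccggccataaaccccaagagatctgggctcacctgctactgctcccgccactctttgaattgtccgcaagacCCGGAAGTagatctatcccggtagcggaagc
Mrpl50, chr4:49521094-49521233, minus strand: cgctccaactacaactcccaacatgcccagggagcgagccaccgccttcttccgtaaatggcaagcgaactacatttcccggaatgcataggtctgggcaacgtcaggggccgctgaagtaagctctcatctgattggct
Mrpl12, chr11:120484487-120484612, plus strand: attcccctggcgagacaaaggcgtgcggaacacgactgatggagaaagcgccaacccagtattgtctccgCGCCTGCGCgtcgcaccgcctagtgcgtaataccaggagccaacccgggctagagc
Mrpl45, chr11:97315566-97315715, plus strand: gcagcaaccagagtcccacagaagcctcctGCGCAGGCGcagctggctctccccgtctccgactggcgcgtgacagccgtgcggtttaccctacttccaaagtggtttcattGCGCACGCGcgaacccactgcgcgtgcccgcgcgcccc
Mrps21, chr3:95871520-95871664, minus strand: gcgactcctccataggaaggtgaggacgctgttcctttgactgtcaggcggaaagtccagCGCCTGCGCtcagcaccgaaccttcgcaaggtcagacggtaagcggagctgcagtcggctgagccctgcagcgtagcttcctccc
The capitals are a GABPA match that starts 55 bases before the RefSeq start site in Mrpl27, and NRF1 matches at 80 bases in Mrpl12, 120 and 38 bases in Mrpl45 and 90 bases in Mrps21. None of the 3 motifs was in the Mrpl50 window.

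The libraries held 16045281 to 43604373 counts. Replicates 1 and 2 of both subsets form batch 1 of the study and replicate 3 forms batch 2. In batch 2, 16.1% and 17.1% of the counts fell on Lars2, Gm23935 and Gm15564, against 0.378% to 0.609% in batch 1. The mitoribosomal genes took 0.182% to 0.263% of a batch 1 library and 0.0496% or 0.0616% of a batch 2 library. Their median count was 771 to 1299 per library in batch 1 but 106.5 and 80.0 in batch 2, so that single genes were measured less precisely there. All 10 macrophage markers looked for were present in every library, and the 3 melanoma cell markers in the tables (Mlana, Pmel and Sox10) summed to 3.00 CPM (counts scaled to a common library total) or less. The macrophage markers summed to 10220, 27550 and 7323 CPM in F4/80high replicates 1, 2 and 3. In F4/80low they summed to 10310, 12470 and 7555 CPM.

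The summed level of the mitoribosomal genes differed less between the subsets than between libraries of one subset. In CPM scaled by the trimmed mean of M-values (TMM), the 47 large subunit genes summed to 1288, 1430 and 758 in F4/80high replicates 1, 2 and 3, and to 991, 1376 and 654 in F4/80low. The mean was 1159 ± 354 in F4/80high and 1007 ± 362 in F4/80low (SD, n = 3). The F4/80high library was the higher one in each pair, but the subsets overlapped. The 29 small subunit genes summed to 661, 703 and 310 in F4/80high and to 516, 730.5 and 261 in F4/80low. The mean was 558 ± 216 against 503 ± 235 (SD, n = 3), and in the pair of replicate 2 the F4/80low library was higher. The ratio of F4/80high to F4/80low within the pairs was 1.30, 1.04 and 1.16 for the large and 1.28, 0.962 and 1.19 for the small subunit. As these are bulk samples, fewer cells of a type and less RNA per cell cannot be told apart.

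**Figure D1:**
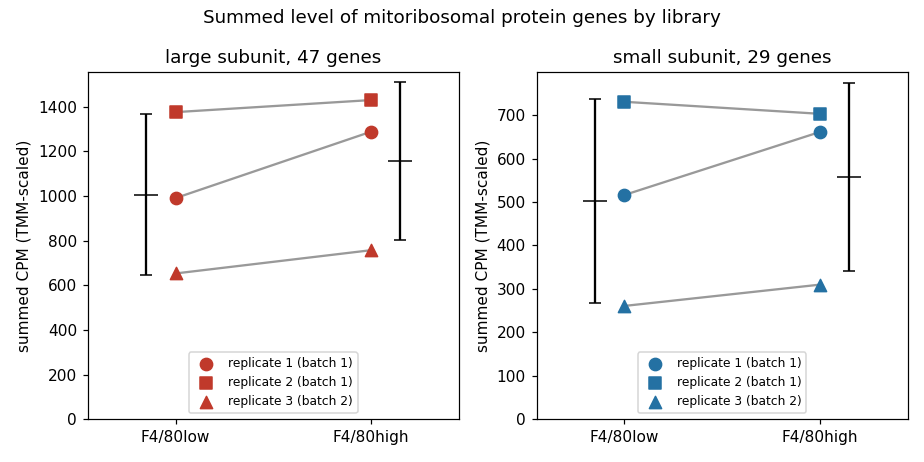
Summed TMM-scaled CPM (y axis) of the large and small subunit genes in each library. Points of one replicate number are joined, and the bar beside them gives the mean and SD of 3 libraries. The batch 2 libraries are the lowest of both subsets, from 654 to 758 for the large and 261 to 310 for the small subunit.

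No mitoribosomal gene was called between the subsets. All 14776 protein-coding genes above the count minimum were tested by edgeR's quasi-likelihood method with a term for batch. A gene was called where its p, adjusted by Benjamini and Hochberg's method, was under 0.05 and its log2 fold change was above 1 in size. It called 0 of 47 large subunit and 0 of 29 small subunit genes, beside 0 of all genes tested (0%). At an unadjusted p under 0.05, 3 large subunit genes were higher in F4/80high (Mrpl27, Mrpl50 and Mrpl1) and 0 were higher in F4/80low, and neither direction held a small subunit gene. Over all genes tested those shares were 3.26% and 4.3%, so the share of the mitoribosomal genes was near the background. DESeq2 with the batch term called 150 genes, 1.15% of the 13057 with an adjusted p, and 0 of the 76. With the replicate number as a block, which pairs the libraries by experiment, edgeR called 76 genes (0.514%), again with 0 of the 76 mitoribosomal genes, and left 2 large subunit genes at an unadjusted p under 0.05.

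The estimates of the genes lay mostly on one side of 0, at a small size. The log2 fold change of F4/80high over F4/80low was above 0 for 41 of 47 large and 21 of 29 small subunit genes, 62 of 76 in all, where 50.8% of all genes tested were above 0. The median was 0.20 for the large and 0.17 for the small subunit, against 0.01 over all genes tested. The estimates ran from -0.29 to 0.94 in the large and from -0.27 to 0.98 in the small subunit, and the median standard error of a single gene (0.28 and 0.30) was larger than the median estimate. Of the large subunit genes, 24 of 30 with a bacterial counterpart and 17 of 17 without one had an estimate above 0. In the small subunit these counts were 10 of 16 and 10 of 12, where Mrps18a and Mrps18b, paralogs of bacterial S18 that sit at other places in the mitoribosome, are counted among those without. These genes share their libraries, so their common direction is not a set of separate observations. Without F4/80low replicate 1 the medians were 0.04 and 0.06, and 46 of 76 estimates were above 0.

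**Figure D2:**
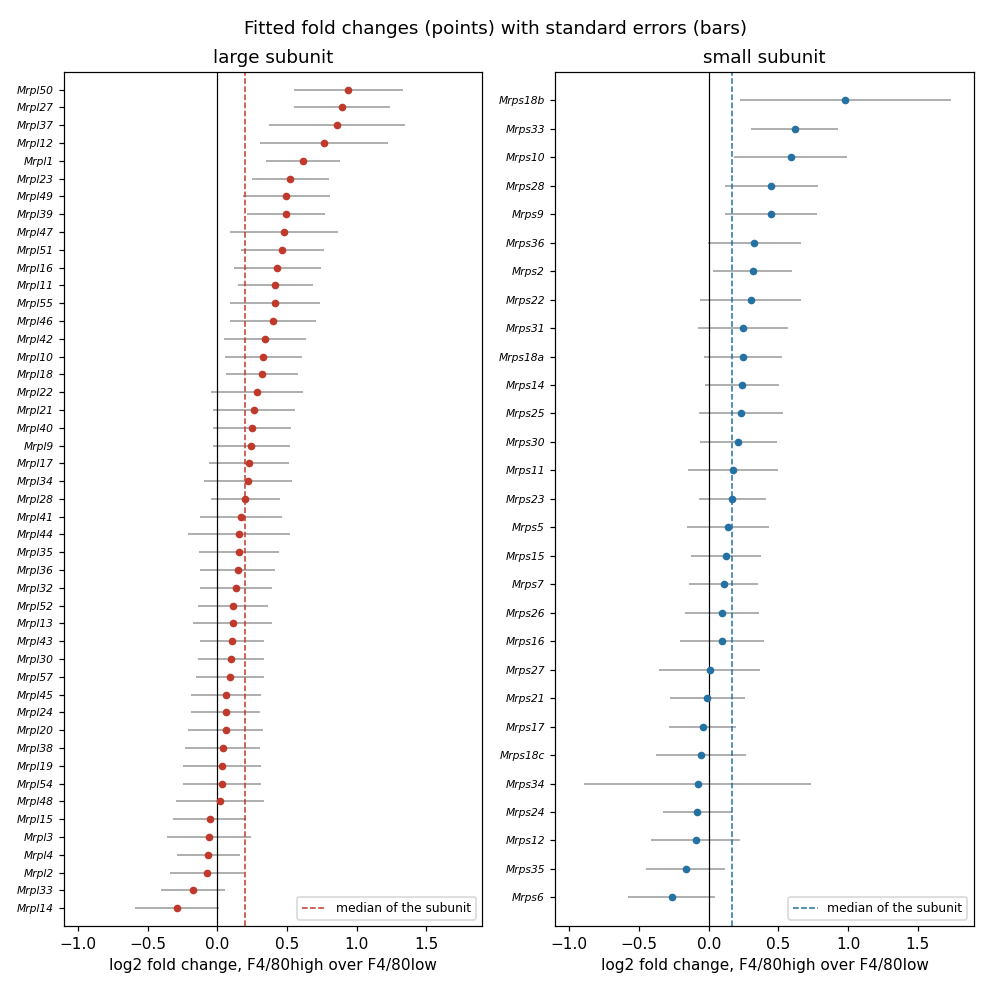
Fitted log2 fold change of F4/80high over F4/80low (x axis, points) with its standard error (bars) for each of the 47 large and 29 small subunit genes, ordered by estimate. The dashed lines are the medians of 0.20 and 0.17, and no gene passed the threshold for a call.

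The difference came unevenly from the 3 replicate pairs. Within each pair the log2 difference of TMM-scaled CPM was taken with a prior count of 2. In the pair of replicate 1, 71 of 76 genes were higher in F4/80high (background 50.9%), with a median difference of 0.37 in the large and 0.33 in the small subunit. In the pair of replicate 2, 44 of 76 were higher (background 46.6%), and the medians were 0.09 and -0.04. In the pair of replicate 3, 53 of 76 were higher (background 48.7%), with medians of 0.16 and 0.10. The medians over all genes tested were 0.01, -0.02 and 0.00. Thus the shift was seen in replicate 1, was small in replicate 3 and was absent from the small subunit median in replicate 2. In all 3 pairs, 22 large and 9 small subunit genes were higher in F4/80high (31 of 76, background 16%), and Mrpl33 alone was higher in F4/80low (background 15.7%). With library size in place of TMM scaling, the median over all genes moved to 0.13, -0.11 and 0.07 in the 3 pairs, and the large subunit medians were 0.49, 0.00 and 0.26.

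The genes scattered more widely around these medians than counting error gives. For 75 genes without a 0, the SD of the log2 difference was 0.226, 0.271 and 0.729 in the 3 pairs, while the counting error alone was 0.0766, 0.0641 and 0.259. The order of the genes was at most weakly shared between pairs. Across the 76 genes, Pearson's r between the differences was 0.234 for pairs 1 and 2, -0.0276 for pairs 1 and 3 and 0.201 for pairs 2 and 3, given as a description since the genes share libraries. A single gene's difference in one pair therefore said little about its difference in another.

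**Figure D3:**
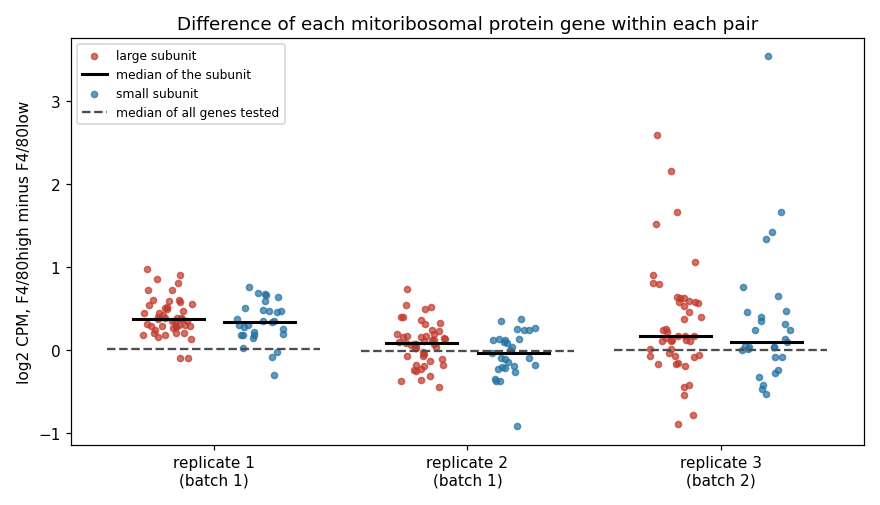
Log2 difference in TMM-scaled CPM (F4/80high minus F4/80low, y axis) of each mitoribosomal gene in the 3 replicate pairs (x axis), with subunit medians (solid) and the median of all genes tested (dashed). The points of replicate 1 lie mostly above the dashed line, those of replicate 2 on both sides, and those of replicate 3 are the most scattered.

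Among the large subunit genes Mrpl27 had the smallest p. It encodes the counterpart of bacterial L27, a protein between the central protuberance and the site of peptide bond formation (ENSMUSG00000024414, chr11:94653767-94660089 on GRCm38, plus strand). Its level was 30.3, 38.4 and 12.85 CPM in F4/80high replicates 1, 2 and 3 and 15.4, 29.2 and 4.44 CPM in F4/80low. It was higher in F4/80high in each pair, yet the subsets overlapped across batches. The mean was 27.2 ± 13.1 against 16.35 ± 12.4 CPM (SD, n = 3). The log2 fold change was 0.89 ± 0.34 (SE) with an unadjusted p of 0.029 and an adjusted p of 0.615, which was 0.109 to 1.00 over the alternatives.

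Mrpl50, a protein of the large subunit with no bacterial counterpart (ENSMUSG00000044018, chr4:49512596-49521093, minus strand), measured 18.5, 23.8 and 23.1 CPM in F4/80high and 15.6, 16.3 and 5.12 CPM in F4/80low. All 3 F4/80high libraries lay above all 3 F4/80low libraries, and Mrpl50 was the 1 gene of 76 for which this held (background 2.27%). Its log2 fold change was 0.94 ± 0.39 with an unadjusted p of 0.040 and an adjusted p of 0.642. The low value of F4/80low replicate 3 rests on 45 counts, and without the replicate 3 libraries the log2 fold change was 0.40.

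Mrpl1 encodes the counterpart of bacterial L1, part of the mobile stalk by which spent transfer RNA leaves (ENSMUSG00000029486, chr5:96209493-96266727, plus strand). It stood at 19.9, 23.5 and 13.7 CPM in F4/80high and 14.3, 14.1 and 8.88 CPM in F4/80low. It had the most even differences of the 3 genes, with 0.47, 0.73 and 0.62 in the pairs. The log2 fold change was 0.61 ± 0.27 with an unadjusted p of 0.047 and an adjusted p of 0.653, and it was 0.61 without the replicate 3 libraries.

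The other stalk of the large subunit, which recruits translation factors, is built from Mrpl10, Mrpl11 and Mrpl12. All 3 estimates were above 0, with a median of 0.42. Mrpl12, which also has a reported role with the mitochondrial RNA polymerase, measured 7.54, 10.3 and 3.02 CPM in F4/80high and 5.36, 8.00 and 0.911 CPM in F4/80low. Its log2 fold change was 0.77 ± 0.46 (adjusted p = 0.714), of which the replicate 3 pair rests on 28 and 8 counts. Mrpl11, at the base of the stalk, measured 23.9, 23.1 and 16.3 CPM against 16.4, 21.2 and 10.6 CPM, a log2 fold change of 0.42 ± 0.27 (adjusted p = 0.724). Neither passed the test.

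The 8 genes at the exit of the peptide tunnel, where the nascent chain meets the inner membrane, all had estimates above 0, with a median of 0.26. Mrpl23, a counterpart of bacterial L23, measured 27.6, 30.3 and 9.72 CPM in F4/80high and 16.7, 24.3 and 6.49 CPM in F4/80low, with a log2 fold change of 0.52 ± 0.28 (adjusted p = 0.699). Mrpl39, which has no bacterial counterpart, measured 27.1, 33.0 and 12.85 CPM against 16.5, 25.0 and 9.79 CPM, with 0.49 ± 0.28 (adjusted p = 0.703). Mrpl47, the counterpart of bacterial L29, had 0.48 ± 0.39. Mrpl45, which anchors the ribosome to the inner membrane, stood at 26.3, 25.0 and 24.6 CPM in F4/80high and 21.3, 29.5 and 22.0 CPM in F4/80low, with 0.06 ± 0.25. The genes of this site thus had similar signs but unequal sizes. Of the 7 genes assigned here to the central protuberance, a mitoribosomal landmark, all 7 estimates were above 0, with a median of 0.25. Mrpl27, Mrpl48 and Mrps30 were among them, and the place of Mrps30 was not checked against a structure. Mrpl48 had 0.02 ± 0.32, and Mrps30 had 0.21 ± 0.28. Mrps30 and Mrps18a (0.24 ± 0.28) carry small subunit names but are part of the large subunit in solved structures.

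In the large subunit, 6 genes had an estimate below 0. Mrpl14, a counterpart of bacterial L14 at the contact with the small subunit, measured 18.7, 18.55 and 10.5 CPM in F4/80high and 15.5, 23.2 and 18.1 CPM in F4/80low. F4/80low was higher in replicates 2 and 3 and lower in replicate 1, and the log2 fold change was -0.29 ± 0.30 (adjusted p = 0.844). Mrpl33, a counterpart of bacterial L33, measured 27.2, 25.0 and 32.3 CPM against 29.2, 32.2 and 33.25 CPM. It was higher in F4/80low in each pair, though the subsets overlapped, with a log2 fold change of -0.17 ± 0.23 (adjusted p = 0.891). For Mrpl2, Mrpl4 and Mrpl15, counterparts of bacterial proteins of the subunit's core, the values were -0.07 ± 0.27, -0.07 ± 0.23 and -0.06 ± 0.26. Mrpl3 had -0.06 ± 0.30 and is named here after its values were seen.

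In the small subunit 8 of 29 estimates were not above 0, and no test between sites was made. All of the 5 head genes but Mrps24 (-0.08 ± 0.25) were above 0, with a median of 0.24, while 2 of 5 platform genes and 2 of 4 body genes were. Mrps7, a counterpart of bacterial S7 in the head, measured 30.7, 38.1 and 11.01 CPM in F4/80high and 31.2, 35.2 and 9.34 CPM in F4/80low, a log2 fold change of 0.11 ± 0.25. Mrps12, the counterpart of bacterial S12 at the decoding site, measured 22.05, 17.4 and 4.54 CPM against 14.6, 22.25 and 6.60 CPM, with -0.09 ± 0.32. Neither gene had a difference beyond the spread between libraries.

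Mrps33 had the smallest p of the small subunit. It measured 29.4, 35.2 and 16.5 CPM in F4/80high and 23.95, 29.8 and 6.15 CPM in F4/80low, and was higher in F4/80high in each pair, with a log2 fold change of 0.62 ± 0.31 (adjusted p = 0.696). The differences in the pairs were 0.29, 0.24 and 1.42, and without the replicate 3 libraries the log2 fold change was 0.27. Mrps10, in the head, measured 21.8, 28.8 and 17.8 CPM against 15.9, 30.8 and 5.58 CPM, with 0.59 ± 0.41. Mrps28 had 0.45 ± 0.33 and Mrps9 had 0.44 ± 0.33. For Mrps9 the difference came from replicate 3, where F4/80high had 30.1 and F4/80low 11.8 CPM, while in replicate 2 F4/80low was the higher one. At the other end Mrps6, a counterpart of bacterial S6 on the platform, measured 28.3, 18.2 and 10.9 CPM in F4/80high and 20.3, 34.5 and 13.7 CPM in F4/80low, with -0.27 ± 0.31 (adjusted p = 0.870). Mrps35 and Mrps17 had -0.17 ± 0.28 and -0.04 ± 0.24. Mrps36, now known as a component of the oxoglutarate dehydrogenase complex in spite of its name, had 0.33 ± 0.33.

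Some large estimates rested on the replicate 3 pair alone. Mrps18b, 1 of 3 mitochondrial paralogs of bacterial S18, measured 3.71, 4.46 and 8.64 CPM in F4/80high and 3.26, 4.81 and 0.683 CPM in F4/80low. The last pair rests on 80 and 6 counts. Its log2 fold change was 0.98 ± 0.76, and without the replicate 3 libraries it was 0.02. Mrpl37, named here after its values were seen, had 507 and 79 counts in the replicate 3 pair, 54.7 against 9.00 CPM, while the pairs of replicates 1 and 2 differed by 0.17 and 0.06. Its log2 fold change fell from 0.86 ± 0.49 to 0.11 without those libraries. The test of the difference between batches gave a log2 value of 3.64 ± 1.05 for Mrps18b and 2.50 ± 0.61 for Mrpl37, each with an adjusted p of 1.00 over all genes, so neither passed. The unadjusted p was 0.0088 for Mrps18b and 0.0037 for Mrpl37. Within the replicate 3 pair the differences of 3.54 and 2.60 were larger than the SD of 0.729 over the genes and than the counting error, but they were seen in 1 pair only.

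Level per gene length, as CPM per kilobase of the deposited gene length averaged over the 6 libraries, spanned a wide range. In the large subunit Mrpl4 (44.4), Mrpl42 (41.5) and Mrpl32 (34.2 CPM per kilobase), the last a protein that a mitochondrial protease matures before assembly, were highest, and Mrpl48 (2.80) and Mrpl47 (1.60) were lowest. In the small subunit Mrps21 (28.5), Mrps16 (27.9) and Mrps6 (19.9) were highest, and Mrps18b (2.04) and Mrps34 (0.811) were lowest. The order depends on the libraries and on the lengths. Over the batch 1 libraries alone Mrpl42 (55.7) was above Mrpl4 (53.5), Mrpl32 (38.4) was below Mrpl36 (39.95) and Mrpl28 (39.8), and Mrpl19 (3.41) was below Mrpl48 (3.69), where Mrpl36, Mrpl28 and Mrpl19 are named after their values were seen. The deposited length equalled the merged exon length in GENCODE M21 for 51 of the 76 genes, Mrps21 (739 bases) among them, but not for most of the highest ones. Mrpl42 had 666 deposited against 3682 merged exon bases, Mrpl32 768 against 4982, Mrpl4 1285 against 2617, Mrps16 566 against 2875 and Mrps6 1053 against 1533. With the longer lengths the levels of these genes would be lower, so their places in the order are uncertain. Mrpl32 had a log2 fold change of 0.14 ± 0.26, Mrps21 of -0.01 ± 0.27 and Mrps16 of 0.09 ± 0.30. Mrpl42 had 0.34 ± 0.30.

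The batches differed far more than the subsets did. In the same fit, the median log2 difference of batch 2 minus batch 1 was -1.08 in the large and -1.23 in the small subunit, against -0.35 over all genes tested. By the same thresholds, 45 of 76 mitoribosomal genes were called lower in batch 2 (background 20.1%) and 1 higher, Mrpl24 (background 17.8%). Replicate 3 alone forms batch 2, so the calls between batches do not measure a spread between experiments. Nuclear-encoded subunits of the respiratory chain and ATP synthase were lower by a similar amount, with 50 of 81 called lower and a median of -1.28, whereas the genes of the cytosolic ribosome had a median of 0.54. In batch 2 Lars2, Gm23935 and Gm15564 took the share of counts given above, and its part in these differences was not tested.

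**Figure D4:**
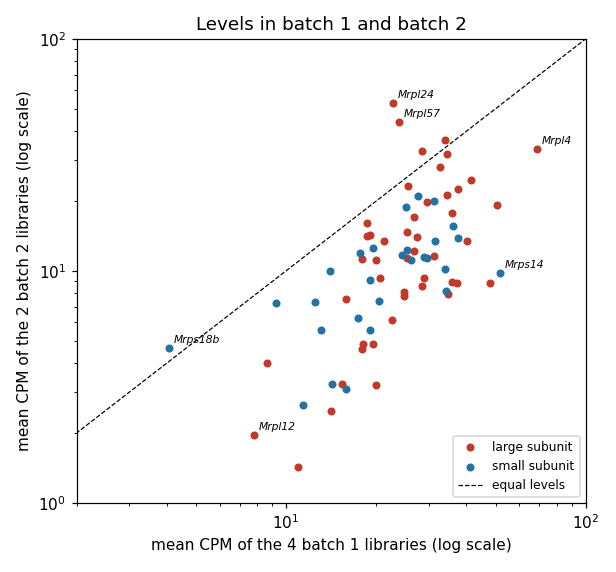
Mean CPM of each mitoribosomal gene in the 2 libraries of batch 2 (y axis) against its mean in the 4 libraries of batch 1 (x axis), both on log scales, with the line of equal levels. Mrps34, at 0 counts in batch 2, cannot be drawn on a log axis, and most other genes lie under the line.

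For a few genes the reads could belong elsewhere. Mrps34 had 85 to 141 counts in the batch 1 libraries and 0 counts in both libraries of batch 2, where 3 counts would be 0.185 to 0.187 CPM. Of its exon bases in GENCODE M21, 77.8% overlap Mapk8ip3 or Nme3, and 69.8% of those of Mrps25 overlap Nr2c2. Exons of 31 of the 76 genes overlap another gene to some extent, and these were the 2 above 50%. As the strand setting of the counting is not given in the sources used here, reads of these genes and their partners cannot be told apart.

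The other genes of mitochondrial translation were not called either. Of 15 translation factors tested, 12 had an estimate above 0, with a median of 0.26 and 0 at an unadjusted p under 0.05. The release factor Mtrf1 had 0.72 ± 0.44 and the recycling factor Mrrf 0.47 ± 0.37, while Pde12, which trims the tails of mitochondrial messengers, had -0.43 ± 0.22 and was lower in F4/80high in each pair. Mtif3 had under 1 CPM in every library and gets no fold. Of 20 mitochondrial transfer RNA synthetases, 16 were above 0, with a median of 0.21. Nars2 (1.16 ± 0.37, adjusted p = 0.530) and Rars2 (0.83 ± 0.36, adjusted p = 0.651) had an unadjusted p under 0.05. The 24 assembly and RNA-processing factors were split, 15 above 0 with a median of 0.08. Fastkd2, which binds the 16S ribosomal RNA, had 0.87 ± 0.34 and was higher in F4/80high in each pair (unadjusted p = 0.030). Trub2, a pseudouridine synthase of mitochondrial RNA, had -0.54 ± 0.22 and was lower in each (unadjusted p = 0.035). Trub2 and Pde12 were far higher in batch 2 than in batch 1, by log2 values of 2.84 and 3.02. The medians of their lists for that difference were -0.98 and -0.59. Of 5 mitoribosomal proteins under other symbols, 3 were above 0, among them Dap3 with 0.24 ± 0.24. The peptidyl-tRNA hydrolase Ict1, also known as Mrpl58, had 0.25 ± 0.29.

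The ribosomal RNAs had the same order of the pairs as the mitoribosomal protein genes, highest in replicate 1 and lowest in replicate 2. The medians over all genes tested also had this order, at a small size. The median of the RNAs that the mitoribosome translates had another order, though single genes differed. The 16S ribosomal RNA gene mt-Rnr2 differed by 0.95, -0.51 and 0.27 in the 3 pairs, and the 12S gene mt-Rnr1 by 1.01, -0.72 and 0.28. These pair values were taken from CPM over all biotypes, with no prior count. In the fit of all biotypes mt-Rnr2 had 0.07 ± 0.40 and mt-Rnr1 had -0.04 ± 0.47. The level of mt-Rnr2 was 1440 to 4903 CPM in batch 1 and 20040 and 24130 CPM in batch 2. The 13 protein genes of mitochondrial DNA all had an estimate above 0, with a median of 0.43. Their pair medians were 0.30, 1.14 and -0.09, with the widest difference in replicate 2, where the mitoribosomal genes differed least. In the 3 pairs 7, 13 and 6 of the 13 were above 0. The 3 with the smallest p differed most in replicate 1. These were mt-Nd2 (0.87, 0.36 and 0.38), mt-Nd6 (1.21, 0.53 and 0.51) and mt-Nd5 (0.77, 0.56 and 0.43). The libraries were poly-A selected, which recovers ribosomal RNA unevenly. Of 12 regulators of mitochondrial content, 7 had an estimate above 0, with a median of 0.07. The smallest p-values were those of Tfb2m and Tfam. Tfb2m, a transcription factor of mitochondrial DNA, had 1.39 ± 0.44 (adjusted p = 0.530) and Tfam, which packages that DNA, had 0.65 ± 0.28 (adjusted p = 0.650), both higher in F4/80high in each pair. For Tfb2m the replicate 3 pair rests on 142 and 19 counts. Without the replicate 3 libraries Tfb2m had 0.82 and Tfam 0.41. Nrf1 and Gabpa, whose motifs were searched above, had -0.22 ± 0.23 and -0.13 ± 0.22.

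Nuclear subunits of the respiratory chain and ATP synthase had pair medians of 0.36, -0.09 and 0.10, and 66 of 81 were above 0 in the fit, with a median of 0.12. Proteins of the cytosolic ribosome had pair medians of 0.64, -0.43 and 0.14, and 65 of 82 were above 0, with a median of 0.10. Both lists shared with the mitoribosomal genes the order of the pairs, highest in replicate 1 and lowest in replicate 2. That order was not particular to these lists. The medians over all genes tested had it at a small size (0.01, -0.02 and 0.00). T and NK cell markers had it too, with pair medians of 1.64, -0.77 and 1.12. The protein genes of mitochondrial DNA and the cell cycle genes had another order. The difference between lists was not tested. Cell cycle genes were above 0 in 23 of 24 cases, with a median of 0.36, and 5 of them had an unadjusted p under 0.05, such as the replication helicase subunit Mcm2 with 0.92 ± 0.28 (adjusted p = 0.516). Their pair medians were 0.33, 0.49 and 0.31, and their part in the mitoribosomal values was not tested.

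**Figure D5:**
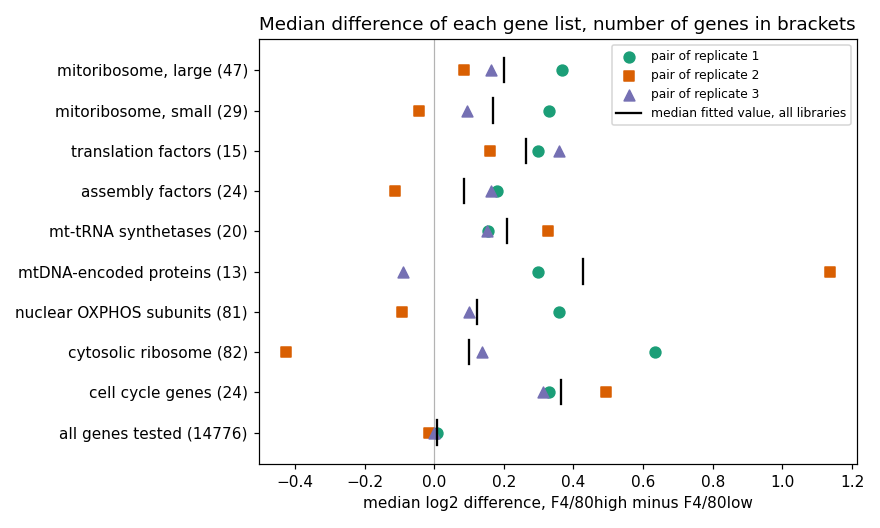
Median log2 difference (F4/80high minus F4/80low, x axis) of each gene list in the 3 replicate pairs (symbols) and in the fit of all libraries (black ticks), with the number of genes tested in brackets. The mitoribosomal, respiratory chain and cytosolic ribosomal lists are highest in replicate 1 and lowest in replicate 2, and all genes tested lie at 0.01, -0.02 and 0.00.

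Markers of other cells moved with the subsets or with the pairs. The 7 eosinophil markers summed to 89.7 to 173 CPM in F4/80high and 221.5 to 591 CPM in F4/80low, and 0 of 7 had an estimate above 0. The 6 neutrophil markers summed to 564 to 1696 and 1143 to 3529 CPM, with 0 of 6 above 0. The 7 T and NK cell markers summed to 963, 279 and 138 CPM in F4/80high replicates 1, 2 and 3 and to 321, 433 and 64.1 CPM in F4/80low. Of these, 6 were tested and all 6 had an estimate above 0, with a median of 0.84. The 4 B cell markers summed to 123.5, 56.8 and 8.50 against 70.9, 113.5 and 5.32 CPM, with 3 of 4 above 0 and a median of 0.30. These lymphocyte sums were higher in F4/80high in replicates 1 and 3 and higher in F4/80low in replicate 2. The small subunit sum had the same directions in the pairs. With TMM scaling the large subunit sum did not, as it was higher in F4/80high in each pair, with 1430 against 1376 CPM in replicate 2. Its direction in replicate 2 depends on the scaling. With library size alone the large subunit median in that pair was -0.0016. As a share of all counts, the mitoribosomal genes took 0.252% in F4/80high replicate 2 and 0.263% in F4/80low replicate 2. The 5 dendritic cell markers summed to 236, 71.8 and 64.4 CPM in F4/80high and to 394.5, 141 and 111 CPM in F4/80low, with 0 of 5 above 0 and a median of -0.76. The 5 fibroblast markers summed to 1030, 428 and 1362 against 1212, 989 and 1659 CPM, with 0 of 5 above 0 and a median of -0.52. The 4 endothelial markers summed to between 2.29 and 39.3 CPM per library. No listed marker of these cell types was at 0 in all libraries, and the part of these cells in the mitoribosomal values was not tested.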

How the data were processed

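Read counts per gene, with gene length and biotype, were deposited as 1 table for each of 6 libraries. The authors made these raw counts by their sequencing center's routine alignment. Which aligner, counting rule, strand setting, genome build and annotation it used is not given in the sources used here. Columns of per-library values left unused numbered 0. Gene coordinates are those of GENCODE M21 (GRCm38), matched by gene ID for all 76 members. The gene Mrpl53 was not analysed here.

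The tests used edgeR 4.0.16, with DESeq2 1.42.0 as an alternative, under R 4.3.3. Of the genes with the biotype protein-coding, the 14776 with at least 10 counts over all libraries were tested by the quasi-likelihood test, with TMM scaling and terms for batch and subset. Calls needed p under 0.05 after Benjamini-Hochberg adjustment over all genes tested, and a log2 fold change above 1 in size. Batches follow the study's own supplementary plot. The script was tested on simulated data with known changes. This checked the code and not whether differences as small as those of the mitoribosomal genes would be called. Levels are CPM with TMM scaling, and values after ± are SDs for levels and standard errors for fold changes. Counting error of a log2 difference was taken from the counts and covers counting only. No 2 libraries were copies of one another. P-values measure the spread between pooled-tumor samples. Those between batches do not measure a spread between experiments, as replicate 3 alone forms batch 2.

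The study states 3 independent experiments, so the replicate numbers were taken to pair the libraries. Deviations from the subset means correlated within the replicate numbers (r = 0.745, 0.729 and 0.907 over 10089 genes). These values cannot decide the pairing, because libraries of the same number share a batch and the difference between batches enters the deviations. Within batch 1 alone, where that difference does not enter, the correlation was 0.241, which is positive but low.

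The members, gene lists and motifs were chosen with earlier results of these data known. Genes named are, for each subunit, up to 5 with the smallest p in each direction, 3 with the highest and 2 with the lowest level per length, and a few fixed for their role. For other lists they are up to 3 with the smallest p in each direction. Alternatives were other scalings, tools, filters, batch and block terms, a length correction and leaving out libraries.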

Additional observations from a re-analysis of the deposited data

Results flagged for a closer look

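Reads on 4 processed pseudogenes with mitoribosomal names, which are no members of the comparison, drew attention as a signal outside the main measurement. The highest count in a library was 96 for Mrpl48-ps, 18 for Mrpl23-ps1, 12 for Mrps36-ps1 and 5 for Mrps36-ps2. Mrpl48-ps had counts of 65, 96 and 0 in the F4/80high libraries (replicates 1 to 3) and of 61, 77 and 3 in the F4/80low libraries, while the parent gene Mrpl48 had 46 to 1428 counts. Pseudogenes and parents can share reads, so these counts and those of Mrpl48, Mrpl23 and Mrps36 are uncertain to that extent.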

How the results depend on the processing

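No mitoribosomal gene was called under any of 19 alternatives, and the lowest adjusted p of a member was 0.109. In the paired fit, which has the replicate number as a block, the medians were 0.21 for the large and 0.17 for the small subunit, and the block changed no call of a member. The 3 large subunit genes with an unadjusted p under 0.05 became 0 with no batch term, 0 without replicate 3 of both subsets and 0 with the replicate block without replicate 3 of both subsets. With each library left out in turn they numbered 0 to 4, and 0 without F4/80high replicate 2 or 3 or F4/80low replicate 1 or 3. The small subunit count ranged from 0 to 1. The large subunit median then ranged from 0.0444 (without F4/80low replicate 1) to 0.36 (without F4/80low replicate 2), and the small subunit median from 0.06 to 0.30. The causes were not tested.

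Of 544 values of the 34 named members under alternatives, 509 kept their sign and 35 changed it. The changed values were at most 0.21 in size, and 0 were called. With the replicate block Mrps21 was 0.0065, with DESeq2 and the block 0.0105, and with the block and the length trend removed Mrps21 was 0.0164, Mrpl15 0.0685 and Mrps17 0.0226. With no batch term Mrpl4 was 0.0042, Mrps12 0.017 and Mrps21 0.0056. With library size alone Mrps21 was 0.0317 and with all biotypes 0.0097. With each library left out in turn Mrpl15 ranged from -0.26 to 0.15, Mrpl2 from -0.18 to 0.10, Mrpl32 from -0.0076 to 0.28, Mrpl4 from -0.16 to 0.11, Mrpl45 from -0.0503 to 0.22, Mrpl48 from -0.21 to 0.26, Mrps7 from -0.0051 to 0.21, Mrps12 from -0.32 to 0.10, Mrps16 from -0.09 to 0.30, Mrps17 from -0.16 to 0.0788, Mrps21 from -0.17 to 0.15, Mrps24 from -0.22 to 0.0182 and Mrps34 from -0.27 to 0.0835.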

Other observations

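Assigning genes by the solved structures (Mrps30 and Mrps18a moved to the large subunit, Mrps36 left out and 5 proteins under other symbols added) gave 44 of 50 large subunit genes with an estimate above 0 and a median log2 fold change of 0.22, and 20 of 30 small subunit genes with a median of 0.13. The distance between the subunit medians was thus wider than by symbol, where they were 0.20 and 0.17, and no test was made of it.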
